A study of Mus musculus with 8 samples.

Results

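Dusp1, Dusp2, Dusp4, Dusp5, Dusp6, Dusp10, Spry1, Spry2 and Spred1 encode inducible inhibitors of mitogen-activated protein kinase (MAPK) signalling. They were taken by symbol from a table of normalized read counts of mouse T regulatory (Treg) cells, and all 9 were among the 52459 genes listed. All 9 also reached a mean of at least 10 normalized counts, the minimum for testing, as did 15419 genes in all. The largest change was a decrease after 16 h of stimulation, in which Dusp10 was 29.8-fold and Dusp1 13.2-fold lower in wild-type (WT) cells. Between genotypes, Dusp4 was called 4.20-fold lower in unstimulated cells labelled Stim1/2-deficient, 1 of the 9 genes where 3.35% of all tested genes were called lower, and the call was lost in each fit that left out 1 WT library. After stimulation 0 of the 9 were called, beside 0.110% of all tested genes lower and 0.162% higher.

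Engagement of the T cell receptor activates Ras, which acts upstream of the MAPK ERK, and it also activates the MAPKs JNK and p38. Dual-specificity phosphatases of the MAPK phosphatase group remove the phosphates from the threonine and the tyrosine in the activation loop of these kinases. Several are themselves transcribed in response to MAPK activity, so that they form a negative feedback, and Dusp1, Dusp2, Dusp4 and Dusp5 act in the nucleus, Dusp6 on ERK in the cytoplasm and Dusp10 on JNK and p38. Sprouty and Spred proteins act further upstream, as adaptors that restrain the activation of Ras and Raf.

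The study sequenced RNA of Treg cells from C57BL/6 mice, with 2 libraries per genotype and state of stimulation and 8 in all, to compare the transcriptome of Stim1/2-deficient cells with that of WT cells. The labels give the genotype of the WT group as WT, and that of the other group as Stim1 fl/f and Stim2 fl/fll with Foxp3-YFPcre. The methods describe sorted CD4+CD25hi cells from the spleen and lymph nodes of pooled female mice heterozygous for Foxp3-YFPcre, in which YFPcre-negative cells served as WT and YFPcre-positive cells as Stim1/2-deficient. STIM1 and STIM2 sense the depletion of calcium stores and open the calcium channel ORAI1. Cre was driven by the Foxp3 promoter, so the groups differ in expression of the YFPcre allele as well, and both come from animals with floxed Stim1 and Stim2 alleles. The ages of the mice were not given in the sources used here. Stimulated cells were kept for 16 h on plate-bound anti-CD3/CD28 at 1 µg/ml, and unstimulated cells received no treatment. Whether they were kept in culture for that time is not stated. The unstimulated WT libraries are replicates 3 and 4, and each other group holds replicates 1 and 2.

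Between 11851853 and 16306540 reads fell on genes in a library, so that 1 read was worth 0.759 to 1.48 normalized counts. Stim1 ranged from 1538 to 1868 normalized counts in unstimulated libraries labelled Stim1/2-deficient and from 1139 to 1377 in WT, and Stim2 from 744 to 904 and from 906 to 908. Stimulated libraries had 552 to 642 of Stim1 in the labelled and 645 to 673 in the WT group, and 620.2 to 696 and 665 to 782 of Stim2. Reads over a deleted exon are not separated in a count per gene, so these values do not check the deletion, and groups are named by their labels throughout. The Treg marker Foxp3 was present in every library, at 4258 to 11918 normalized counts. The file names in the labels place unstimulated libraries in 1 sequencing lane and stimulated libraries in another, so stimulation, culture and lane cannot be told apart, whereas both genotypes lie within each lane. In the main fit each p-value rests on the spread between the 2 pools of mice of a group. That spread was estimated over all 4 groups together, also those outside a comparison, and drawn toward that of other genes. In bulk RNA fewer cells of a type and less RNA per cell cannot be told apart. The pair of unstimulated labelled libraries stood apart, with a chi-square per degree of freedom of 68.8 between their reads against 9.96 for the unstimulated WT pair, 11.6 for the stimulated WT pair and 33.0 for the stimulated labelled pair. Summed macrophage markers, a list of 16 genes, came to 13888 and 2190 normalized counts in unstimulated labelled replicates 1 and 2 and to 1162 and 1183 in unstimulated WT libraries, in each of which 3 of the 16 genes were at 0, against 0 in the labelled libraries. Of its 15 tested genes, 10 were called higher in the unstimulated labelled libraries. Their median log2 fold change was 4.71, with 1 below 0. Axl alone held 975 and 210 of the macrophage counts in labelled replicates 1 and 2, and 813 and 827 in the WT libraries. Summed B cell markers came to 20379 and 5796 in those labelled libraries and to 6989 and 6219 in WT, and 2 of 15 were called higher. Ighm alone held 11092 and 3279 of these counts in the labelled and 6446 and 5414 in the WT libraries. The 15 genes had a median log2 fold change of 3.08 for the unstimulated labelled over the WT libraries, with 0 of them below 0. The 12 genes of a T cell and Treg list summed to 53571 and 63318 in the labelled and to 112632 and 102622 in the WT libraries, with 2 called lower. Ctla4 alone held 6338 and 17333 of these counts in the labelled and 37404 and 35119 in the WT libraries. Ikzf2 held 8398 and 9233 against 18953 and 19707. The T cell gene Cd3e differed less, with 3042 and 3156 against 3424 and 3294, as did Lck, with 2722 and 2363 against 2950 and 2409. Of the 12 genes 11 had a log2 fold change below 0, with a median of -0.44. The part of these transcripts in the results was not tested.

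Promoters are shown for Dusp1 and Dusp10, the genes with the largest called decreases, and for Dusp5, which also fell in WT cells and whose window held motif matches. RefSeq windows on GRCm38.p6, from 250 bases before to 50 after a start site, were found for 8 of the 9 genes, with none used for Dusp4. The 250 bases before the start site are shown 5′ to 3′ on the strand of the gene, with matches in capitals. For Dusp1 they lie on the minus strand at chr17:26508473-26508722, for Dusp5 on the plus strand at chr19:53528895-53529144 and for Dusp10 on the plus strand at chr1:184034131-184034380.
Dusp1: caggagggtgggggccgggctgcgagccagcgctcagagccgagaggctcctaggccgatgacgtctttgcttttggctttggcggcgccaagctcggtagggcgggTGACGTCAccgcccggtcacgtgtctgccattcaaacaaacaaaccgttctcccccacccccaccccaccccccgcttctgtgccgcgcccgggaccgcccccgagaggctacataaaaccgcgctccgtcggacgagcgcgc
Dusp5: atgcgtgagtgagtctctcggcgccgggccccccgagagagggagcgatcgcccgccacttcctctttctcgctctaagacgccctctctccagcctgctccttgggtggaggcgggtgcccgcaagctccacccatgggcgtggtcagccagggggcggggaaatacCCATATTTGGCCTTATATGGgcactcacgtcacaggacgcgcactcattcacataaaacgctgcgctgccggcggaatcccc
Dusp10: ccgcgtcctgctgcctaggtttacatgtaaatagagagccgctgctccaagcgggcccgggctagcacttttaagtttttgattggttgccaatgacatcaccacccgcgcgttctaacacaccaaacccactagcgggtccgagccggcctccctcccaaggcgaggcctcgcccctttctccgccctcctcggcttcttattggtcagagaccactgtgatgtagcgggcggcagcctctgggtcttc
The capitals mark a CRE (TGACGTCA), the element bound by CREB and ATF factors, at 143 bases before the start of Dusp1, and SRF CArG boxes at 82 and 72 bases before the start of Dusp5, the element through which serum response factor and its partners act on immediate early genes. The 2 CArG boxes of Dusp5 directly follow each other. Both strands of all 32851 windows were searched, and 1.79% held a CRE and 1.63% a CArG box. No letters of AP-1 (TGACTCA), NFAT (TGGAAA) or ETS (CCGGAAG) motifs were found in the 8 windows, and these occurred in 5.2%, 21.4% and 8.86% of all windows. Dusp10 held none of the 5 motifs, which says only that these letters are not in this window.

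Levels of different genes are compared per kb of exon, with exon lengths from the GENCODE annotation of NCBIM37. In unstimulated WT cells Dusp4 had 2116 mean normalized counts per kb, Dusp1 1880 and Dusp10 1861, followed by Dusp5 with 1086 and Dusp2 with 418. Dusp6 had 106, Spry1 92.3, Spred1 68.7 and Spry2 10.1. Nuclear phosphatases and the JNK and p38 phosphatase Dusp10 were therefore the most abundant transcripts of the group, and the adaptors were scarce. After 16 h the order in WT cells was led by Dusp2 with 569 and Dusp4 with 513 normalized counts per kb, then Dusp5 with 340. Dusp1 followed at 141, Spred1 at 116 and Dusp10 at 63.4. Spry1 had 39.3, Dusp6 35.5 and Spry2 0.926. In libraries labelled Stim1/2-deficient, the highest levels per kb were those of Dusp10 with 2643 before and Dusp2 with 667 after stimulation. The level of Dusp10 rested on unstimulated labelled replicate 2, with 4440 normalized counts per kb against 845 in replicate 1, where Dusp1 was the highest at 1447.

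**Figure D1:**
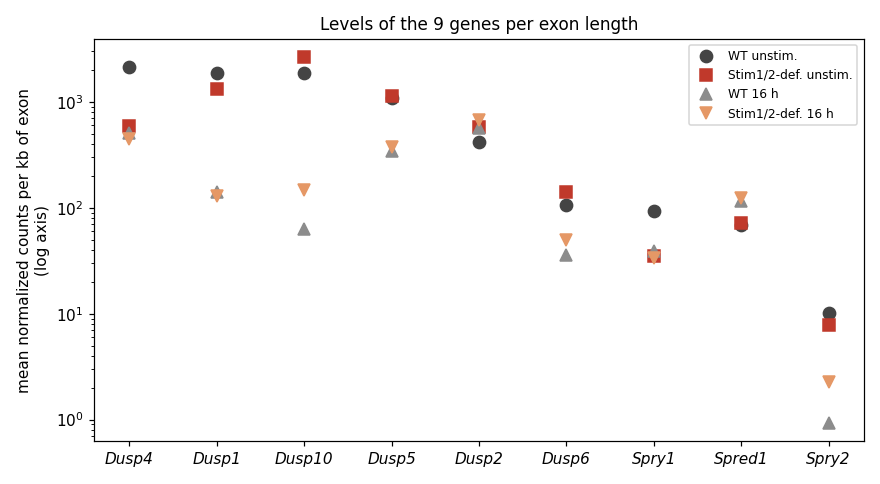
Mean normalized counts per kb of exon of the 9 genes (log axis) in the 4 groups, each mean from 2 libraries, with genes ordered by their level in unstimulated WT cells. Dusp10 and Dusp1 dropped from 1861 and 1880 to 63.4 and 141 in WT cells, and Dusp2 and Spred1 lay higher after stimulation than before.

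Dusp1, the nuclear phosphatase of JNK, p38 and ERK that is known as an immediate early gene, had 5488 and 4653 normalized counts in the unstimulated WT group and 3904 and 3247 in unstimulated labelled libraries. After 16 h it had 376 and 386 in WT and 339 and 354 in labelled libraries. All 4 stimulated libraries lay far below the 4 unstimulated libraries, and the labelled libraries lay below the WT libraries in both states. Stimulation lowered Dusp1 in WT cells by a log2 fold change of -3.73 (standard error, SE, 0.19, adjusted p = 1.65e-05, limma). In labelled cells the log2 fold change was -3.36 (SE 0.19, adjusted p = 2.46e-05, limma). The genotype difference did not pass in either state, with log2 fold changes of -0.51 (adjusted p = 0.149, limma) and -0.14 (adjusted p = 0.805, limma).

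Dusp10, a phosphatase of JNK and p38, had 6066 and 5254 normalized counts in the unstimulated WT group. The unstimulated labelled libraries had 2570 in replicate 1 and 13508 in replicate 2, on either side of both WT libraries. After 16 h it had 234 and 152 in WT and 457 and 439 in labelled libraries. Stimulated libraries were again all below the unstimulated ones, and both stimulated labelled libraries lay above both stimulated WT libraries. Dusp10 fell by 4.90 on the log2 scale in WT cells (SE 0.58, adjusted p = 7.97e-04, limma) and fell by 3.72 in labelled cells (adjusted p = 0.00206, limma). The fall in labelled cells was 2.52 without unstimulated labelled replicate 2 and 4.91 without replicate 1, and it passed in both cases. The stimulated labelled libraries had a log2 fold change of 1.24 over WT (95% interval -0.03 to 2.52), which did not pass (adjusted p = 0.378, limma). It passed at the same size when the spread was estimated without unstimulated labelled replicate 1 (adjusted p = 0.0234, limma) or replicate 2 (adjusted p = 0.0269, limma). In unstimulated cells the log2 fold change of 0.06 had no stable sign, at -1.14 without labelled replicate 2 and 1.26 without labelled replicate 1. Each of these passed, in opposite directions (adjusted p = 0.0332 and adjusted p = 0.0264, limma). The difference between its genotype differences, 1.18 (adjusted p = 0.709, limma), likewise passed without unstimulated labelled replicate 2 (2.38, adjusted p = 0.0169, limma) and was -0.014 without replicate 1. The overlapping gene 1700056E22Rik on the opposite strand had a mean of 27.1 normalized counts over the 8 libraries.

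Dusp4, a nuclear phosphatase of ERK and JNK, was the gene with a genotype difference that passed. It had 6389 and 5206 normalized counts in the unstimulated WT group against 754 and 2500 in the labelled libraries, which both lay below. After 16 h it had 1340 and 1473 in WT and 1155 and 1287 in labelled libraries, and the stimulated WT libraries lay within the range of the unstimulated labelled libraries. Labelled cells had a log2 fold change of -2.07 without stimulation (SE 0.42, 95% interval -3.01 to -1.13, adjusted p = 0.0271, limma). The log2 fold change was -1.21 without labelled replicate 1 and -2.93 without replicate 2, and passed in both cases. It did not pass without WT replicate 3 (-1.92, adjusted p = 0.290, limma) or WT replicate 4 (-2.22, adjusted p = 0.111, limma), nor without stimulated WT replicate 1 or 2 (adjusted p = 0.0610 and adjusted p = 0.0633, limma). The call was also lost in a fit to the 4 unstimulated libraries alone (adjusted p = 0.0780, limma) and in one to every gene with a value above 0 (adjusted p = 0.0571, limma). After stimulation the difference was -0.20 (adjusted p = 0.884, limma). The difference between these genotype differences, 1.87 on the log2 scale (95% interval 0.53 to 3.20), had an unadjusted p of 0.0107 in limma and an adjusted p of 0.556. It passed without unstimulated labelled replicate 2 (2.73, adjusted p = 0.00490, limma), and was 1.00 without replicate 1. Stimulation lowered Dusp4 in WT cells by a log2 fold change of -2.04 (adjusted p = 0.00857, limma), and the value in labelled cells was -0.17 (adjusted p = 0.795, limma). These stimulation responses and the genotype differences share libraries. The decrease in WT cells passed in none of the 4 fits that left out 1 WT library, with log2 fold changes of -2.18 to -1.89.

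**Figure D2:**
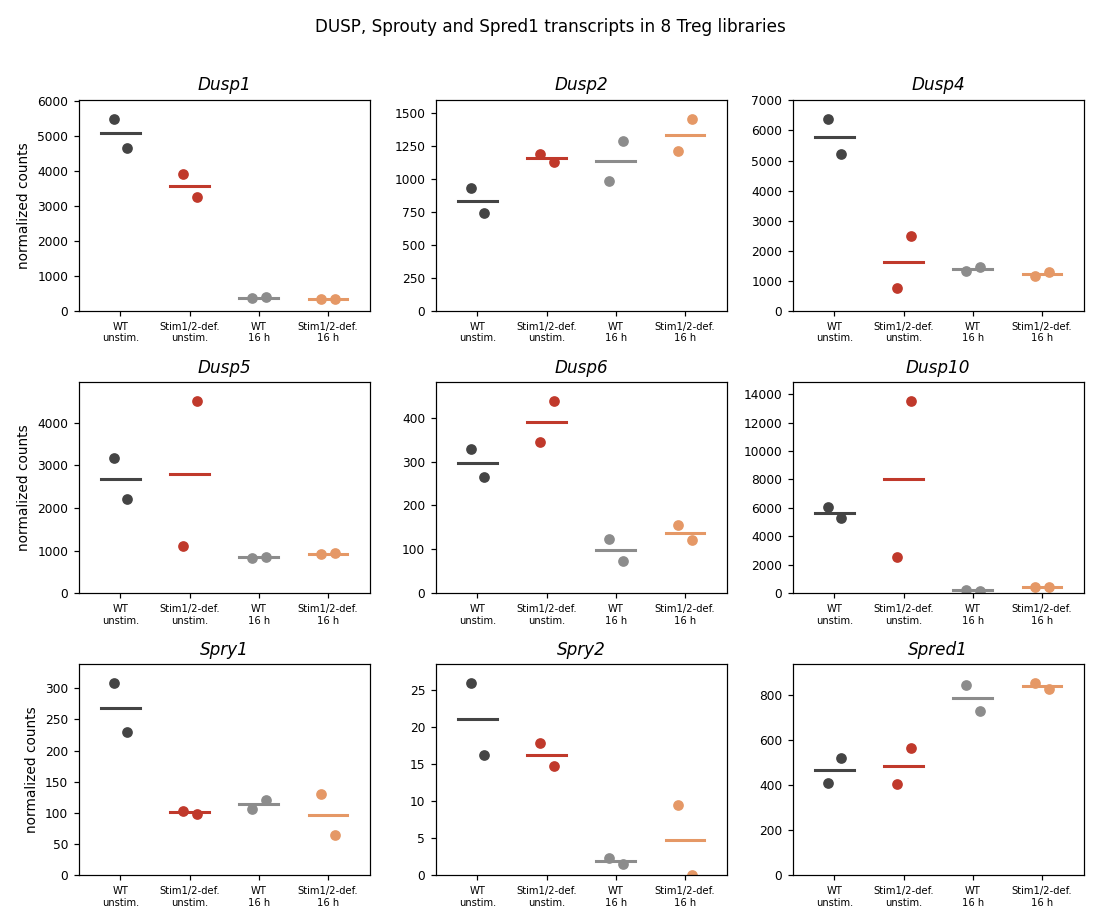
Normalized counts of each gene (linear axes from 0, 1 panel a gene) in the 8 libraries, with 1 point a library and a bar at the mean of the 2 libraries of a group. Dusp1 and Dusp10 are low in all 4 stimulated libraries, Dusp4 and Spry1 are highest in the unstimulated WT libraries, and the unstimulated labelled libraries are far apart for Dusp4, Dusp5 and Dusp10.

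Dusp5, a nuclear phosphatase specific for ERK, had 3163 and 2207 normalized counts in the unstimulated WT group and 1107 and 4507 in labelled replicates 1 and 2. After 16 h the libraries lay close together, at 820 and 861 in WT and 912 and 933 in labelled cells. Unstimulated labelled libraries again enclosed both WT libraries, and all stimulated libraries lay below all unstimulated ones. Dusp5 fell in WT cells by 1.65 on the log2 scale (SE 0.49, adjusted p = 0.0356, limma), a call lost in each fit that left out 1 WT library. The value in labelled cells was -1.28 (adjusted p = 0.0829, limma). It was -0.26 without unstimulated labelled replicate 2, and -2.29 without replicate 1, which passed (adjusted p = 2.33e-04, limma). The genotype difference of -0.24 in unstimulated cells (adjusted p = 0.822, limma) was -1.25 without labelled replicate 2, which passed (adjusted p = 0.0150, limma), and 0.77 without replicate 1.

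Dusp2, a nuclear phosphatase abundant in activated haematopoietic cells, was the phosphatase of this group whose values were not lower after stimulation. It had 929 and 746 normalized counts in unstimulated WT, 1194 and 1134 in unstimulated labelled, 989 and 1289 in stimulated WT and 1214 and 1458 in stimulated labelled libraries. The unstimulated WT libraries were the lowest, and the unstimulated labelled libraries lay within the range of the stimulated WT libraries. Log2 fold changes with stimulation were 0.44 in WT (95% interval -0.03 to 0.91, adjusted p = 0.159, limma) and 0.19 in labelled cells (95% interval -0.28 to 0.66, adjusted p = 0.532, limma). Labelled cells had log2 fold changes of 0.48 over WT without (adjusted p = 0.216, limma) and 0.24 with stimulation (adjusted p = 0.683, limma).

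Dusp6, the cytoplasmic phosphatase of ERK, had 329 and 264 normalized counts in the unstimulated WT group, 344 and 438 in unstimulated labelled libraries, 125 and 73.7 in stimulated WT libraries and 155 and 122 in stimulated labelled libraries. Stimulated libraries lay below unstimulated libraries in both genotypes. Dusp6 fell by 1.61 on the log2 scale in WT cells (SE 0.32, adjusted p = 0.00725, limma) and by 1.49 in labelled cells (adjusted p = 0.00893, limma). The fall in WT cells did not pass without unstimulated WT replicate 3 (adjusted p = 0.0702, limma) or stimulated WT replicate 2 (adjusted p = 0.0678, limma). Genotype differences were 0.39 without and 0.51 with stimulation (adjusted p = 0.516 and 0.535, limma).

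Among the adaptors, Spry1 had 308 and 229 normalized counts in the unstimulated WT group and 103 and 98.8 in unstimulated labelled libraries. In stimulated libraries it had 107 and 121 in WT and 130 and 64.2 in labelled cells. Only the unstimulated WT libraries stood out, and the other 6 lay between 64.2 and 130. The log2 fold change of unstimulated labelled cells was -1.39 (SE 0.37, 95% interval -2.21 to -0.57), which did not pass in limma (adjusted p = 0.0626) and passed in DESeq2 on recovered reads (-1.40, adjusted p = 0.0172). Spry1 fell in WT cells by 1.21 (adjusted p = 0.0387, limma), a call lost in each fit that left out 1 WT library and with libraries scaled to equal totals (-0.70, adjusted p = 0.165, limma). The value in labelled cells was -0.14 (adjusted p = 0.811, limma), and the difference between the responses, 1.07, did not pass (95% interval -0.09 to 2.24, adjusted p = 0.625, limma).

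Spry2 was close to the limit of detection. It had 24 and 11 reads in unstimulated WT libraries, 17 and 11 in unstimulated labelled libraries, 3 and 2 in stimulated WT libraries, and 12 and 0 in stimulated labelled libraries. As normalized counts these were 25.9 and 16.3, 17.8 and 14.7, 2.34 and 1.52, and 9.53 and 0. Unstimulated libraries were 11.3-fold higher than stimulated libraries in WT cells over the summed 35 and 5 reads, with a 95% counting interval of 4.43 to 37.1, and 3.35-fold higher in labelled cells over 28 and 12 reads, with an interval of 1.65 to 7.23. These exact binomial intervals cover counting error only, and over replicates neither response passed (adjusted p = 0.0810 and 0.132, limma).

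Spred1, which recruits neurofibromin to restrain Ras, was the gene that rose. It had 409 and 523 normalized counts in unstimulated WT and 405 and 564 in unstimulated labelled libraries, against 843 and 728 in stimulated WT and 853 and 829 in stimulated labelled libraries. The stimulated libraries did not overlap the unstimulated ones, and genotypes overlapped in both states. The log2 fold change was 0.76 in WT (SE 0.23, adjusted p = 0.0400, limma) and 0.81 in labelled cells (adjusted p = 0.0288, limma). With libraries scaled to equal upper quartiles it did not pass in WT (0.63, adjusted p = 0.0929, limma) or labelled cells (0.70, adjusted p = 0.0641, limma), and each fit that left out 1 WT library lost the call in WT cells. In labelled cells it was lost without unstimulated labelled replicate 1, either stimulated labelled library or either stimulated WT library, at adjusted p of 0.0524 to 0.0952 in limma. Between genotypes, log2 fold changes were 0.05 without stimulation (95% interval -0.47 to 0.57) and 0.10 with it (95% interval -0.42 to 0.62).

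**Figure D3:**
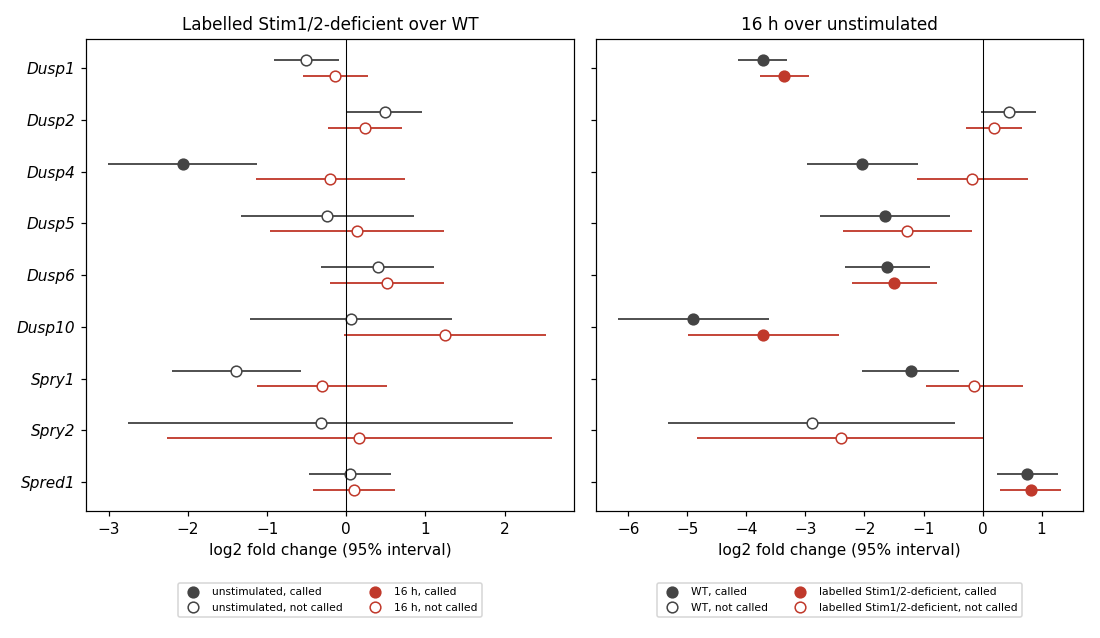
Log2 fold changes with 95% intervals from limma for genotype (left, labelled Stim1/2-deficient over WT) and stimulation (right, 16 h over unstimulated), 2 libraries against 2. Filled points passed an adjusted p under 0.05 and 1.5-fold, which were Dusp4 on the left and 7 genes in WT and 4 in labelled cells on the right.

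Counted over the 9 genes, 6 were called lower and 1 higher with stimulation in WT cells, where 13.1% of all tested genes were called lower and 10.2% higher. In labelled cells 3 were called lower, namely Dusp1, Dusp6 and Dusp10, and 1 higher, against 12.0% lower and 13.0% higher of all tested genes. The median log2 fold change of the 9 genes was -1.65 in WT and -1.28 in labelled cells, and that of all tested genes 0.01 and -0.03. Scaling the libraries to equal totals shifted the median of all genes to 0.52 in WT and 0.35 in labelled cells. With that scaling the labelled responses of Dusp4 and Spry1 turned to 0.22 and 0.25, 4 genes were called lower and 2 higher in WT cells, and all others kept their sign. When libraries were left out 1 at a time, the number called lower in WT cells ranged from 2, without stimulated WT replicate 2 or unstimulated WT replicate 3, to 7, and Dusp1 and Dusp10 were called each time. In labelled cells it ranged from 3 to 5, with 5 without unstimulated labelled replicate 1. A list of 14 genes known to respond to tissue dissociation and handling, which includes Fos, Fosb, Jun and Junb, moved with these decreases. It summed to 31145 to 37210 normalized counts in unstimulated and 12512 to 17600 in stimulated libraries, and 11 of its 14 genes were called lower in WT and 10 in labelled cells. In 3 of the 4 stimulated libraries 1 of the 14 genes was at 0. Its part in the decreases was not tested.

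For genotype in unstimulated cells, 1 of the 9 genes was called lower and 0 higher in limma, beside 3.35% and 1.38% of all tested genes. At an unadjusted p under 0.05 and 1.5-fold 2 were lower, Dusp4 and Spry1, and 0 higher, beside 1705 and 1338 of the 15419 tested genes. DESeq2 called the same 2 lower and 0 higher, beside 817 and 521 of all genes. Both labelled libraries lay below both WT libraries for Dusp1, Dusp4 and Spry1, 3 of 9 genes against 27.1% of all tested genes, and above them for Dusp2 and Dusp6, 2 of 9 against 26.5%. These shares were near the background. After stimulation 0 were called in either direction in limma, where 0.110% of all tested genes were called lower and 0.162% higher. At an unadjusted p 0 of the 9 passed, beside 1072 lower and 864 higher of the 15419 tested genes. DESeq2 and edgeR also called 0 of the 9, beside 299 lower and 251 higher genes with DESeq2 and 0 and 1 with edgeR. Stimulated labelled libraries lay below WT for Dusp1 and Dusp4, 2 of 9 against 23.1%, and above for Dusp5 and Dusp10, 2 of 9 against 24.3%. The difference between genotype differences gave 0 calls among the 9 genes and 0% of all tested genes in either direction. Dusp4 alone passed at an unadjusted p, beside 543 lower and 704 higher of all tested genes. By edgeR or DESeq2 there were 0 calls among the 9, beside 0 of all genes with edgeR and 13 lower and 37 higher with DESeq2. Median log2 fold changes of the 9 genes were -0.24 without and 0.13 with stimulation, beside -0.01 and 0.02 for all tested genes.

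The 3 genes whose unstimulated labelled libraries differed most were the phosphatases Dusp4, Dusp5 and Dusp10. Replicate 2 exceeded replicate 1 by 3.31-fold for Dusp4, 4.07-fold for Dusp5 and 5.25-fold for Dusp10. Of all tested genes, 5.95%, 3.79% and 2.11% differed by more between these libraries, in either direction. In the other groups the libraries of these 3 genes differed by at most 0.62 on the log2 scale. Dusp1, with a ratio of 0.832, Dusp2, with 0.949, and Spry1, with 0.962, were close between the same labelled libraries. Replicate 1, with the lower values of the 3 phosphatases, was the library with the higher macrophage and B cell sums given above, and the part of these sums was not tested.

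**Figure D4:**
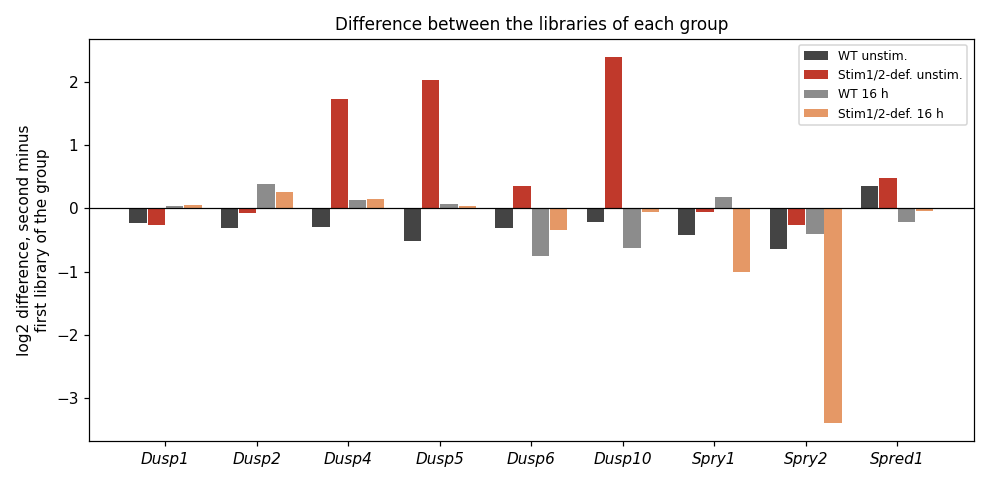
Difference on the log2 scale between the libraries of each group, higher minus lower replicate number, for the 9 genes. Dusp4, Dusp5 and Dusp10 differ by 1.73, 2.02 and 2.39 between the unstimulated labelled libraries, and the large bar of Spry2 in stimulated labelled cells stands for 12 against 0 reads.

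Over the 8 libraries, in which stimulation and genotype are shared by all genes, log2 levels of Dusp10 followed those of Dusp6 with a Pearson's r of 0.956, of Dusp1 with 0.921 and of Dusp5 with 0.920. Dusp4 was closest to Spry1, at 0.805. Dusp2 and Spred1 ran opposite to most others, with r of -0.790 between Dusp2 and Spry1 and -0.942 between Spred1 and Dusp1. Among all other tested genes, Dusp1 was closest to 2310033P09Rik, Madd and Cntrl, with r of 0.992 to 0.998, Dusp10 to Kdm7a and Vps37b, with 0.996 to 0.997, and Dusp4 to Prkar1a, Ninj1 and Spin1, with 0.980 to 0.995. Dusp5 was closest to Cyth2, Sprtn and Pja1, Dusp6 to Man2a1, Rasgrp2 and Chrna2, and Dusp2 to Gm15545, Zfp661 and Trrap. For Spry1 the closest were Vps26b, mt-Nd6 and Gm42620, for Spry2 Ano7, Atn1 and Gpr155, and for Spred1 Epn1, Mir17hg and Tnpo1. These are descriptions over 8 libraries that fall into stimulated and unstimulated clusters.

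Of 21 other DUSP, Sprouty and Spred genes, 15 were tested. Calls of single genes in this and the following lists were not followed through the fits that left out 1 library. In unstimulated labelled cells 3.35% of all tested genes were called lower and 1.38% higher. Of the 15 genes 1 was called lower and 0 higher. This was Dusp14, a small dual-specificity phosphatase, with 599 and 555 normalized counts in WT against 37.8 and 28.1 in labelled libraries (log2 fold change -4.11, SE 0.50, adjusted p = 0.00546, limma). Both labelled libraries held little Dusp14. It had 118 and 163 in stimulated WT and 89.7 and 27.0 in stimulated labelled libraries. For genotype at 16 h 0 genes of the list were called, beside 0.110% lower and 0.162% higher of all tested genes. At an unadjusted p 3 were lower, beside 1072 of the 15419 tested genes. Stimulation of WT cells lowered Spry4 (-3.08), Dusp14 (-2.04) and the JNK and p38 phosphatase Dusp16 (-1.79). It raised 2 genes, with Dusp22 (1.82) the larger change. Of all tested genes 13.1% were lower and 10.2% higher there. Spry4 had only 2.34 and 4.56 normalized counts in stimulated WT libraries. In labelled cells Dusp18 (-3.39) and Dusp3 (-2.97) fell and Dusp22 (1.64) rose on the log2 scale, beside 12.0% lower and 13.0% higher of all tested genes. Stimulated labelled libraries held 1.59 and 0 normalized counts of Dusp18 and 4.76 and 0.84 of Dusp3, where 1 read was worth 0.794 and 0.844. The sizes of these 2 decreases therefore depend on the pseudocount of 1.

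The shares of all tested genes called in unstimulated labelled cells were 3.35% lower and 1.38% higher. Of 26 tested genes of the Ras and MAPK core, the kinases and their activators, 1 was called lower in these cells and 0 higher. This was Map2k3, a kinase that activates p38, with 994 and 1019 normalized counts in WT and 325 and 502 in labelled libraries (log2 fold change -1.31, adjusted p = 0.0281, limma). With stimulation 6 were lower and 0 higher in WT cells, beside 13.1% and 10.2% of all tested genes. The 6 were led by Map2k6 (-2.72), which also activates p38, and Grb2 (-1.31), the adaptor of the Ras exchange factor SOS. In labelled cells 5 were lower, led by Map2k6 (-2.22) and Mapk12 (-1.80), and 2 higher, with Hras (1.17) the larger change. Of all tested genes 12.0% were lower and 13.0% higher in labelled cells. Of 22 other brakes on Ras signalling, 1 was lower in unstimulated labelled cells, the Raf kinase inhibitor Pebp1, with 207 and 188 in WT against 74.5 and 82.8 normalized counts in labelled libraries (log2 fold change -1.32, adjusted p = 0.0223, limma). Stimulation lowered 5 of them in each genotype, among them Dgka, which removes the Ras activator diacylglycerol, with a log2 fold change of -1.70 in WT cells, and raised 0 in WT and 2 in labelled cells, Dok1 (1.94) and Pebp1 (1.69).

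Of 23 tested genes known to respond to ERK, 6 were called lower and 3 higher with stimulation in WT cells, and 7 and 3 in labelled cells. The shares of all tested genes were 13.1% and 10.2% in WT cells, and 12.0% and 13.0% in labelled cells. In WT cells Fosb (-5.79), Fos (-5.48) and Fosl2 (-2.84) fell on the log2 scale, and Egr2 (2.37) rose. In labelled cells Fosb (-7.34), Fos (-4.39), Junb (-2.27) and Fosl2 (-2.23) fell. Fosl2 had 1685 and 8612 normalized counts in unstimulated labelled replicates 1 and 2, so the size of its fall rests on libraries that lay far apart. The stimulated labelled libraries held 23.0 and 1.69 normalized counts of Fosb, so the size of its fall there depends on the pseudocount. The list thus held AP-1 genes that fell as Dusp1 did and genes that rose. Between genotypes 0 were called in unstimulated cells, beside 3.35% lower and 1.38% higher of all tested genes. At an unadjusted p 2 were lower and 3 higher, beside 1705 and 1338 of the 15419 tested genes. In stimulated cells 1 was called, the activation marker Cd69, beside 0.110% lower and 0.162% higher of all tested genes. Cd69 had 4521 and 6289 normalized counts in labelled against 2161 and 2165 in WT libraries (log2 fold change 1.30, adjusted p = 0.0481, limma). A further list of 14 genes held NFAT and calcineurin genes together with activation genes such as Tnfrsf9 and Cd83. The lists were chosen with earlier results of these data known. Of these 14 genes 4 were called lower in unstimulated labelled cells and 0 higher, beside 3.35% and 1.38% of all tested genes. The paper had already reported Tnfrsf9 and Irf4 as lower in these cells, so this count cannot measure an enrichment. The 4 were Tnfrsf9 (-3.08), Cd83 (-2.91), Irf4 (-1.90) and Nfatc1 (-0.80). For genotype at 16 h 1 of the 14 was called lower and 0 higher, beside 0.110% and 0.162% of all tested genes. With stimulation 5 were lower and 2 higher in WT cells, beside 13.1% and 10.2%. In labelled cells 4 were lower and 3 higher, beside 12.0% and 13.0%.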

How the data were processed

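RNA of sorted Treg cells was sequenced in 8 libraries, and the labels gave their genotype and stimulation. The authors counted reads per gene and scaled each library by 1 factor, which gave the deposited signal values, called normalized counts here. Of these values, 100% were whole multiples of 1 read within 0.006 normalized counts, so reads were recovered by division. The methods name Bowtie and NCBIM37, with duplicate removal in Picard and counting in HTSeq, whereas the submitters' processing notes name STAR 2.7 and mm10, and 5131 symbols of the table are of a late form of which 0 occur in the NCBIM37 annotation. The strandedness of the kit differs between these sources as well. Coordinates are therefore given only for RefSeq promoters.

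Genes whose mean reached 10 normalized counts were fitted on the log2(value + 1) scale, a pseudocount of 1, with limma 3.58.1 (eBayes with a trend) in R 4.3.3, in 1 model of 4 groups. Tests were 2-sided, p-values were adjusted by Benjamini and Hochberg over the 15419 tested genes of a contrast, and calls needed an adjusted p under 0.05 and 1.5-fold. The script was tested on simulated data. Alternatives were pseudocounts of 0.1 and 5, other filters and scalings, edgeR 4.0.16 and DESeq2 1.42.0 on recovered reads, array weights, 4 libraries alone, a replicate block, a 2-fold threshold, an unadjusted p and each library left out. All 9 genes were reported, and from other lists at most 4 called genes per contrast, by largest change. For each of the 9, the 3 genes with the highest Pearson's r over the 8 libraries were named, of which 1 is not reported here. The members and lists were chosen with earlier results of these data known, and the counting interval of Spry2 was chosen after seeing the data. The lists of dendritic, neutrophil, CD8 T and NK, erythroid and stromal markers held no gene called between genotypes. Their sums still differed without stimulation. Dendritic markers came to 1784 and 836 in labelled replicates 1 and 2, against 703 and 770 in WT. Neutrophil markers came to 1252 and 509 against 240 and 145, and CD8 T and NK markers to 1161 and 363 against 489 and 439. Erythroid markers came to 259 and 92.2 against 35.6 and 68. Stromal sums, 3636 and 5032 against 2279 and 2431, were mostly Pecam1.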

Additional observations from a re-analysis of the deposited data

How the results depend on the processing

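Of the log2 fold changes of the 9 genes under all alternatives, 170 of 170 kept their direction for stimulation in WT cells, 175 of 179 in labelled cells, 162 of 170 for genotype without and 174 of 179 with stimulation, and 147 of 161 for the difference between genotype differences. In unstimulated cells Dusp5 became 0.046 with edgeR and 0.081 with DESeq2, and ranged from -1.25 to 0.77 with each library left out, Dusp10 from -1.14 to 1.26 and Spred1 from -0.19 to 0.28. In stimulated cells Spry2 became -1.02 with a pseudocount of 0.1 and ranged from -1.54 to 1.86, Spry1 from -0.82 to 0.19 and Spred1 from -0.0041 to 0.21. The difference between genotype differences became -0.011 for Dusp6 and -0.074 for Spred1 with equal totals, -0.052 for Spred1 with quantile normalization and -0.68 for Spry2 with a pseudocount of 0.1. With each library left out it ranged from -0.64 to 1.39 for Dusp5, from -0.26 to 0.49 for Dusp6, from -0.014 to 2.38 for Dusp10, from -1.21 to 2.19 for Spry2 and from -0.18 to 0.29 for Spred1. Responses of labelled cells ranged from -1.04 to 0.69 for Dusp4 and from -0.64 to 0.37 for Spry1, and with equal totals they were 0.22 and 0.25. The cause was not tested.

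The number of the 9 genes called lower in unstimulated labelled cells, 1, became 0 with every gene above 0 or 4 libraries, 2 with DESeq2 or an unadjusted p, and 0 to 3 with each library left out, 3 without labelled replicate 2. The number called higher was 0 to 1 without and 0 to 1 with stimulation, and that of the difference between genotype differences 0 to 2, with Dusp4 and Dusp10 without unstimulated labelled replicate 2, or 1 at an unadjusted p. Stimulation in WT cells called 2 to 7 lower and 0 to 1 higher, and in labelled cells 3 to 5 lower and 0 to 2 higher. The 1 gene called higher became 0 in both with every gene above 0, equal upper quartiles or 2-fold, 0 in labelled cells with array weights or 4 libraries, and 2 in WT cells with equal totals. Where 1 library was left, it was assumed to vary like the other groups.

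Over all tested genes, unstimulated labelled cells had 517 lower and 213 higher, from 8 and 0 without WT replicate 3 to 924 and 374 without labelled replicate 2, and 817 and 521 with DESeq2. Stimulated labelled cells had 17 and 25, against 0 and 1 with edgeR and 299 and 251 with DESeq2, and from 0 and 0 without stimulated labelled replicate 2 to 551 and 211 without replicate 1. The difference between genotype differences had 0 and 0 (543 and 704 at an unadjusted p), but 17 and 179 without unstimulated labelled replicate 2 and 13 and 37 with DESeq2. Equal totals gave 975 lower and 4261 higher genes with stimulation in WT cells, from 2013 and 1580, and 1077 and 3792 in labelled cells, from 1855 and 1997. Replicate numbers were not taken to pair libraries, since no source says that they do and 2 pairs cannot show it, although the correlations of deviations were positive, at 0.167 and 0.257. A replicate block gave 43 lower and 45 higher genes for genotype at 16 h and 2442 and 2412 for stimulation in labelled cells, where Dusp5 passed (-1.28, limma adjusted p = 0.0186). It changed no other call of the 9 genes. Depth limits Spry2, at 0 to 24 reads a library.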
